A study of Mus musculus with 4 samples.

Results

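The genes described here are 10 genes of the IL-1 family and of inflammatory cytokines, taken by symbol from RNA sequencing tables of mouse Langerhans cells, and all 10 of them were found among the 24441 gene symbols listed. They are the IL-1 ligands Il1a and Il1b, the antagonist Il1rn, the decoy receptor Il1r2, the related ligand Il18, and the cytokine genes Il6, Tnf, Il10, Il12b and Il23a. These cells, which take up and present antigen in the epidermis, had been sorted from epidermal cell suspensions of mice aged 4 weeks. The study compared 2 groups, Tfam cKO, mice with a CD11c-Cre transgene and floxed alleles of Tfam, a factor that packages and transcribes mitochondrial DNA, and WT, wild-type mice. There were 2 libraries per group, which the labels number 1 and 2. CD11c-Cre acts in CD11c-expressing cells and is not restricted to Langerhans cells. The labels do not say whether WT mice carried Cre or floxed alleles, or how many mice gave a library, so p-values reflect only how these libraries vary.

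IL-1α and IL-1β bind the same receptor, IL1R1 with its partner chain IL1RAP, and signal through MYD88 to the transcription factor NF-κB. The IL-1 receptor antagonist, from Il1rn, occupies IL1R1 without signalling, and IL1R2 captures IL-1 without signalling. IL-1β and IL-18 are made as inactive precursors that caspase-1 can cleave. In skin, IL-1β and TNF are known for driving Langerhans cells out of the epidermis toward lymph nodes.

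Promoter sequences are printed for the genes the results turn on: Il1b, which had the largest fitted difference of the tested members, Il1a, its neighbour with a difference of the opposite sign, and Il1r2 and Tnf, the members of highest level. Each runs from 250 bases before to 50 bases after the start site, 5′ to 3′ on the strand of the gene, from RefSeq on GRCm38.p6. Capitals mark TATAAA, the AP-1 motif TGANTCA and the E-box CACGTG, searched on both strands with the CRE TGACGTCA and the NF-κB motif by name. The Il1b window lies at chr2:129371090-129371389 on the minus strand, that of Il1a at chr2:129309923-129310222 on the minus strand, that of Il1r2 at chr1:40085843-40086142 on the plus strand and that of Tnf at chr17:35201958-35202257 on the minus strand.
Il1b: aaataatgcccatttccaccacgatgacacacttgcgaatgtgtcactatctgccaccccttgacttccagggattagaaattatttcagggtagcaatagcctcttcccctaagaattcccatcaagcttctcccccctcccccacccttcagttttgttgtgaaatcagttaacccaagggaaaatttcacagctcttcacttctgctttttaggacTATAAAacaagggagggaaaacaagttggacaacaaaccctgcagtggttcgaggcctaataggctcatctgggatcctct
Il1a: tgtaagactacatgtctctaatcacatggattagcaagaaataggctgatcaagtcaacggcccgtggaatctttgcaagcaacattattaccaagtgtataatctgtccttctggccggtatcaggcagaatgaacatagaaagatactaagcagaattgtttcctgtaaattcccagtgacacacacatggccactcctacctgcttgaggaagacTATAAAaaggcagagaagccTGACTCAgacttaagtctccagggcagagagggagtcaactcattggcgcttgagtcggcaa
Il1r2: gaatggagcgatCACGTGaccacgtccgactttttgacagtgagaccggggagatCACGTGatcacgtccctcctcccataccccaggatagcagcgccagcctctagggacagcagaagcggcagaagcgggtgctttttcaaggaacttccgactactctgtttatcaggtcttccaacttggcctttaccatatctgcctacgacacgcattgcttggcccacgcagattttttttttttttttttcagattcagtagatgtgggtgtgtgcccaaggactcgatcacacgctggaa
Tnf: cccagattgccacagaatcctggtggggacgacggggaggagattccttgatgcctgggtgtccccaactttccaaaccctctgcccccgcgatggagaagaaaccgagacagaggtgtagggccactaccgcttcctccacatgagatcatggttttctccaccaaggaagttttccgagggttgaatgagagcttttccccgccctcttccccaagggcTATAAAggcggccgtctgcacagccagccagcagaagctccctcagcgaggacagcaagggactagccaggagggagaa
TATAAA began 31 bases before the start site in Il1b, 32 bases before it in Il1a and 29 bases before it in Tnf. On the strand of the gene it began between 35 and 25 bases before the start in 1.75% of 32851 such windows, and in those 3 windows among the 10 windows that the table held for 8 of the members. The Il1r2 window held no TATAAA but 2 copies of CACGTG, a motif found in 7.15% of windows. The Il1a window held TGACTCA 12 bases before the start, and TGANTCA was found in 7.81% of windows, among them that of Il6 and 1 of the 3 windows of Il1rn. No matches overlapped each other. The NF-κB motif, found in 8.46% of windows, was matched in that of Il6 only, as GGGATTTTCC 44 bases before the start. No match says only that these letters are absent from the window, and no position in the files was used, because their coordinates could not be matched to GRCm38.p6.

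Values are FPKM, fragments scaled to transcript length and to the mapped fragments of the library, which allow levels of different genes to be compared per length. Total read numbers are not recorded, and recovered fragments placed the depth of the libraries between 0.884 and 1.56 times that of WT 1. Tfam itself was listed at 1.65 and 1.53 FPKM in Tfam cKO 1 and 2, against 3.17 and 1.61 FPKM in WT 1 and 2, so WT 2 was at the Tfam cKO level and every direction below rests on the labels. Langerhans cell markers were high in all 4 libraries, with Cd207, encoding langerin, at 1528 and 1374 FPKM in Tfam cKO, against 2098 and 1495 FPKM in WT. The 10 markers of Langerhans cells summed to 30075.8 and 23860 FPKM in Tfam cKO, against 27159.4 and 27200.5 FPKM in WT. Keratinocyte RNA was also present, with all 10 markers at or above 1 FPKM in every library. They summed to 13200.2 and 12112 FPKM in Tfam cKO, against 13927 and 9156 FPKM in WT. Krt5, the highest of them, was at 4480 and 3814.5 FPKM in Tfam cKO, against 4598 and 3003 FPKM in WT, above Cd207 in every library. Markers of T cells summed to 184 and 274 FPKM in Tfam cKO, against 244 and 289 FPKM in WT. The Y-linked genes Ddx3y, Uty, Kdm5d and Eif2s3y were listed at 0 in both libraries numbered 1 and above 0 in both numbered 2. Ddx3y was at 9.34 FPKM in Tfam cKO 2 and 28.2 FPKM in WT 2. RNA of male mice was thus found only in the libraries numbered 2, and differences within a number are given below beside those between groups. In such bulk samples, fewer cells of a type and less RNA per cell cannot be told apart.

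Of the 10 genes, 8 reached a mean level of 1 FPKM and entered the test, while Il10 and Il12b lay below it. With limma on log2(FPKM + 1) and Benjamini-Hochberg adjustment over all 10910 tested genes, 0 of the 8 passed an adjusted p of 0.05, where 2 of all tested genes, 0.0183%, did. Their adjusted p-values lay between 0.646 and 0.988. At an unadjusted p below 0.05 there were 3, Il1a, Il1rn and Il1b, against 6.21% of all tested genes. The groups did not overlap for 4 of the 8, with Tfam cKO above WT for 2, Il1a and Il1rn, and below WT for 2, Il1r2 and Tnf, against 25.4% above and 9.75% below over all tested genes. The median log2 difference of the 8 was −0.17, against 0.07 for all tested genes. Rescaling the libraries to equal totals moved the median of all tested genes by −0.11, to −0.04, and the background to 14.3% above and 19.8% below. On that scale Il1b and Il18 also had separate groups, with Tfam cKO below WT.

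**Figure D1:**
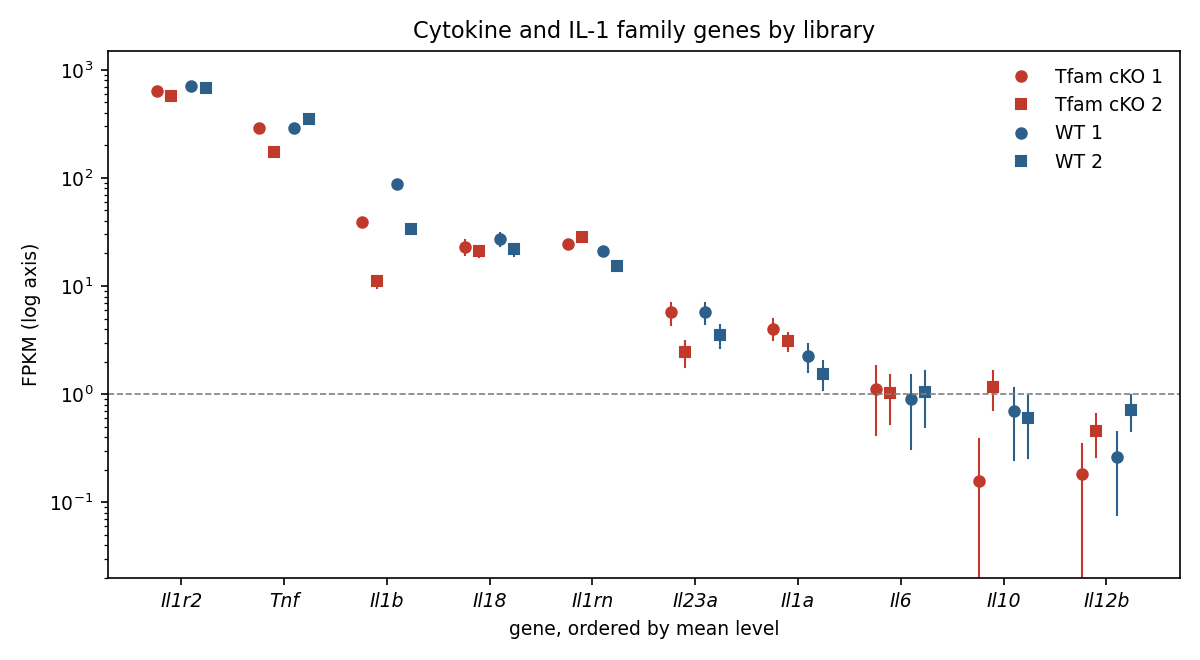
FPKM on a log axis of the 10 genes in the 4 libraries, ordered by mean level, with Tfam cKO in red left of WT in blue, circles for libraries numbered 1, squares for those numbered 2, and lines for Cufflinks' 95% interval, cut at the lower edge of the plot. Il1r2 and Tnf lie above 100 FPKM in every library, and Il10 and Il12b average below the dashed line at 1 FPKM.

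The level of these genes spanned 3 tiers. Il1r2 and Tnf together made up 90.5% and 91.5% of the summed FPKM of the 10 genes in Tfam cKO 1 and 2, against 87.1% and 92.9% in WT 1 and 2. Il1rn, Il1b and Il18 formed a middle tier, averaging 26.4 ± 3.11, 24.9 ± 19.7 and 22.1 ± 1.39 FPKM in Tfam cKO (SD, n = 2). Their order in WT was Il1b, Il18 and Il1rn, at 61.2 ± 38.8, 24.6 ± 3.89 and 18.2 ± 4.06 FPKM (SD, n = 2). Within Tfam cKO the Il1b values lay above and below those of the other genes, while both Il1rn values were above both Il18 values. In WT, both Il1b values were above both Il18 values, and both Il18 values were above both Il1rn values. Il23a and Il1a followed at 4.08 ± 2.31 and 3.57 ± 0.678 FPKM in Tfam cKO, a gap within their spread. In WT they averaged 4.61 ± 1.55 and 1.90 ± 0.500 FPKM. Il6 was close to 1 FPKM throughout.

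The ligand gene Il1b had the largest fitted difference of the 8 tested members and, on the log2 scale, also the largest standard error. It was listed at 38.9 and 11.0 FPKM in Tfam cKO 1 and 2, against 88.7 and 33.8 FPKM in WT 1 and 2. WT 1 was highest and Tfam cKO 2 lowest, and the groups overlapped in FPKM as deposited, since Tfam cKO 1 lay above WT 2. These values rest on about 504 and 246 effective fragments in Tfam cKO and 1309 and 685 in WT, numbers derived from the width of Cufflinks' interval, so the spread within a group was far wider than counting error. The log2 difference was −1.35 (SE 0.56, 95% interval −2.64 to −0.06, limma adjusted p = 0.796) in the fit on genotype alone. The fit with the replicate number as a term is given in the closing section. Between Tfam cKO 1 and WT 1 it was −1.17 and between Tfam cKO 2 and WT 2 it was −1.53, and in each group library 1 was the higher. Without Tfam cKO 1 the difference was −2.21 and passed the threshold (limma adjusted p = 1.12e-10) in a fit whose variances are pooled over all genes. Without Tfam cKO 2 it was −0.49, without WT 1 −0.67 and without WT 2 −2.03, none of them past the threshold.

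Il1a, the gene for the other IL-1 ligand, had the opposite sign. It was listed at 4.04 and 3.09 FPKM in Tfam cKO 1 and 2, against 2.26 and 1.55 FPKM in WT 1 and 2. The groups did not overlap, Tfam cKO being the higher, at a low level with about 79 and 105 effective fragments in Tfam cKO and 50 and 45 in WT. The log2 difference of 0.66 (SE 0.21, 95% interval 0.18 to 1.14) did not pass the adjusted threshold (limma adjusted p = 0.646). It was 0.63 for the libraries of number 1, Tfam cKO 1 against WT 1, and 0.68 for those of number 2. In the files' own coordinates, of unresolved build, Il1a spans 129125346 to 129135708 and Il1b 129190314 to 129196875 on chromosome 2, a gap of 54605 bases. Keratinocytes also express Il1a, and the summed level of their markers was highest in WT 1 and lowest in WT 2, while Il1a was highest in Tfam cKO 1 and lowest in WT 2. The part of keratinocyte RNA in this difference was not tested.

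Il1rn, which encodes the receptor antagonist, was the other gene with separate groups and Tfam cKO the higher. Its level was 24.2 and 28.6 FPKM in Tfam cKO 1 and 2, against 21.1 and 15.4 FPKM in WT 1 and 2. Tfam cKO 1 and WT 1 were close, and the lowest value was that of WT 2. The log2 difference was 0.52 (SE 0.20, 95% interval 0.07 to 0.98, limma adjusted p = 0.732), with 0.19 between the libraries of number 1 and 0.86 between those of number 2. At equal totals it was 0.42, and without WT 2 it was 0.31. Keratinocytes express Il1rn as well. WT 2 was lowest for Il1rn and for the summed keratinocyte markers, but Il1rn was highest in Tfam cKO 2 and the sum in WT 1. Single markers, chosen after their values were seen, did not all follow the sum. Krt17 and Krt10 were highest in Tfam cKO 2, and Krt5 and Krt15 in WT 1. How far keratinocyte RNA enters this difference was not tested.

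Il1r2, the decoy receptor gene, was the most abundant of the 10 and ranked between 69th and 96th of all symbols in the 4 libraries. It was listed at 641 and 573 FPKM in Tfam cKO 1 and 2, against 706 and 678 FPKM in WT 1 and 2. The groups did not overlap, Tfam cKO being the lower, and all 4 values were close to each other. The log2 difference was −0.19 (SE 0.21, 95% interval −0.67 to 0.29, limma adjusted p = 0.945), and −0.31 at equal totals. The signalling receptor gene Il1r1, chosen after its values were seen, was far lower, at 10.3 and 9.73 FPKM in Tfam cKO, against 11.7 and 11.4 FPKM in WT.

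**Figure D2:**
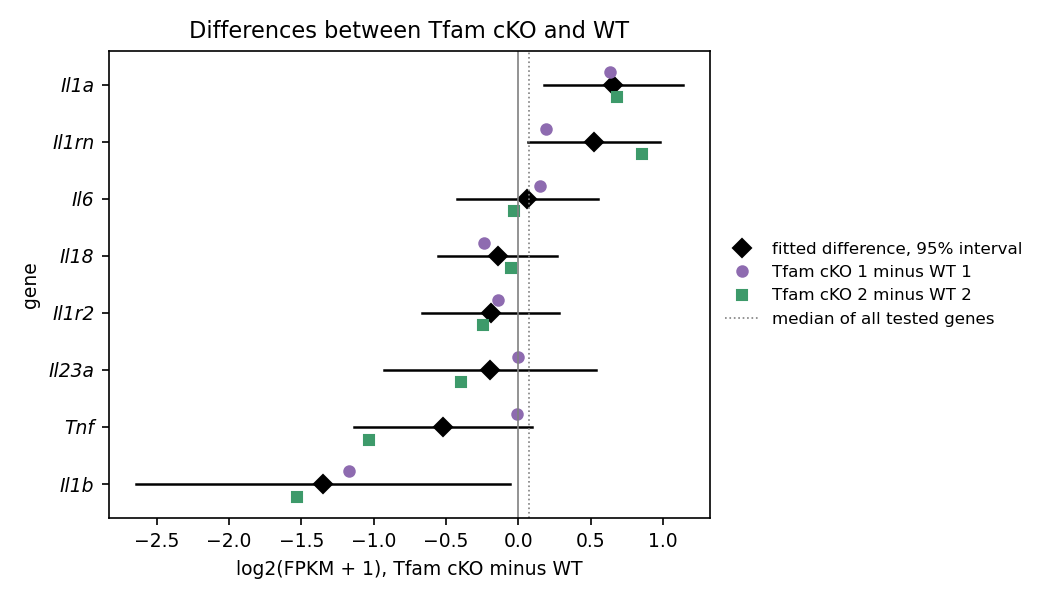
Difference in log2(FPKM + 1), Tfam cKO minus WT, of the 8 tested genes, with black diamonds and lines for limma's estimate and 95% interval, purple circles for libraries numbered 1 and green squares for those numbered 2. Il1a and Il1rn lie to the right of 0 and Il1b to the left in both numbers, while Tnf lies near 0 in number 1.

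Ratios within a library do not depend on how the libraries are scaled. The ratio of Il1rn to Il1b was 0.624 and 2.59 in Tfam cKO 1 and 2, against 0.238 and 0.455 in WT 1 and 2. Il1rn thus exceeded Il1b in Tfam cKO 2 alone of the 4 libraries. The ratio of Il1a to Il1b was 0.104 and 0.279 in Tfam cKO, against 0.0254 and 0.0458 in WT. For both ratios the groups did not overlap, Tfam cKO being the higher. This direction restates the signs of Il1a, Il1rn and Il1b given above and is no separate result. The ratio of Il1r2 to Il1b was 16.5 and 51.8 in Tfam cKO, against 7.96 and 20.1 in WT, and that of Tnf to Il1b was 7.37 and 15.6 in Tfam cKO, against 3.25 and 10.5 in WT. The ratio of Il18 to Il1b was 0.593 and 1.91 in Tfam cKO, against 0.308 and 0.645 in WT. For Il1r2, Tnf and Il18 the groups overlapped, with WT 2 above Tfam cKO 1. In each group library 2 had the higher ratio for every one of these genes. These ratios share the Il1b value and are given as a description, since an exact permutation test of 2 against 2 libraries cannot go below a two-sided p of 0.333.

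**Figure D3:**
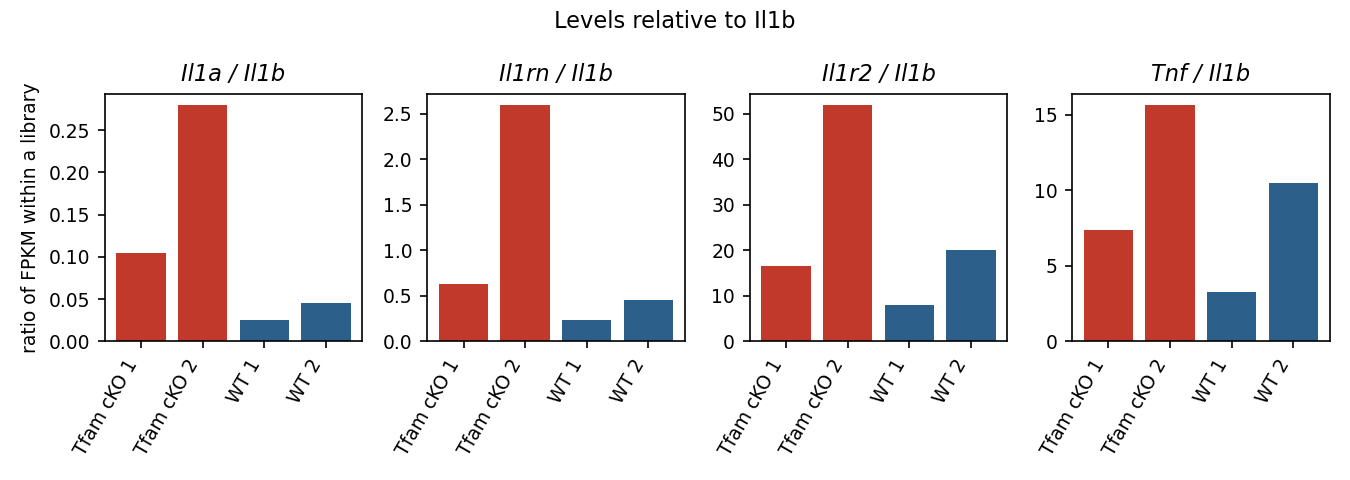
FPKM of Il1a, Il1rn, Il1r2 and Tnf divided by that of Il1b in the same library, with Tfam cKO in red and WT in blue, each bar 1 library. The bars of Il1a and Il1rn do not overlap between the groups, Tfam cKO being the higher, and the highest bar of every panel is Tfam cKO 2.

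Il18, whose product is matured by caspase-1 like IL-1β, was the steadiest gene of the middle tier. It was listed at 23.0 and 21.1 FPKM in Tfam cKO 1 and 2, against 27.3 and 21.8 FPKM in WT 1 and 2. WT 1 was highest, and the groups overlapped in FPKM as deposited. The log2 difference was −0.14 (SE 0.18, 95% interval −0.55 to 0.27, limma adjusted p = 0.956). It was −0.27 at equal totals and 0.01 without WT 1. Il18 is also expressed by keratinocytes. The sum of their markers was highest in WT 1, like Il18, but lowest in WT 2, while Il18 was lowest in Tfam cKO 2. The part of keratinocyte RNA in the level of Il18 was not tested.

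Tnf, the gene of the cytokine TNF, was the member of second highest level. Its values were 286 and 172 FPKM in Tfam cKO 1 and 2, against 289 and 353 FPKM in WT 1 and 2. Tfam cKO 1 was level with WT 1, and only Tfam cKO 2 stood apart on the low side. The log2 difference was −0.52 (SE 0.27, 95% interval −1.14 to 0.09, limma adjusted p = 0.855). Tfam cKO 1 differed from WT 1 by −0.01 and Tfam cKO 2 from WT 2 by −1.03. Without Tfam cKO 2 it was −0.16, and without Tfam cKO 1 it was −0.89. The 15 genes of tissue dissociation and early stress summed to 25868 and 17661 FPKM in Tfam cKO, against 19254 and 19434 FPKM in WT. Without the heat shock genes Hspa1a and Hspa1b the list summed to 13117 and 10762 FPKM in Tfam cKO, against 10149 and 12351 FPKM in WT. The sum of Tfam cKO 2 was then above that of WT 1, but still below those of Tfam cKO 1 and WT 2. Of the 15 genes, 6 were lowest in Tfam cKO 2, where Tnf and Il1b were lowest, 8 in WT 1 and 1 in WT 2. The part of such stress in the cytokine levels was not tested.

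The remaining cytokine genes were low. Il23a, encoding the p19 chain of IL-23, was listed at 5.71 and 2.44 FPKM in Tfam cKO 1 and 2, against 5.71 and 3.52 FPKM in WT 1 and 2. Like Il1b it was higher in library 1 of each group, and the groups overlapped (log2 difference −0.20, SE 0.32, 95% interval −0.93 to 0.53, limma adjusted p = 0.961). The sign turned positive without WT 1, at 0.09, and without Tfam cKO 2, at 0.29. Il12b encodes the p40 chain shared by IL-12 and IL-23 and was listed at 0.184 and 0.458 FPKM in Tfam cKO, against 0.260 and 0.714 FPKM in WT. In contrast to Il23a, Il12b was higher in library 2 of each group, on only 5 and 22 effective fragments in Tfam cKO and 8 and 30 in WT.

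Il6 and Il10 were also low, on few fragments. Il6, a cytokine of the acute phase response, was listed at 1.12 and 1.02 FPKM in Tfam cKO, against 0.910 and 1.06 FPKM in WT, with between 9 and 17 effective fragments a library. The groups overlapped (log2 difference 0.06, SE 0.21, 95% interval −0.42 to 0.55, limma adjusted p = 0.988), with a value of −0.00022 at equal totals. The anti-inflammatory cytokine gene Il10 was listed at 0.158 and 1.17 FPKM in Tfam cKO, against 0.697 and 0.608 FPKM in WT. Its lowest and highest values were thus both in Tfam cKO, on 2 and 26 effective fragments. Il10 and Il12b were not tested.

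Markers of other cells that make these cytokines were examined as well. Of 10 neutrophil markers, between 5 and 8 were listed at 0 in each library, Ly6g, Elane, Camp and Retnlg in all 4, and the list summed to 0.382 and 4.99 FPKM in Tfam cKO, against 1.83 and 4.09 FPKM in WT. Of 8 mast cell markers, 6 were at 0 in every library, and the list summed to between 0.622 and 1.60 FPKM over the 4 libraries. The 10 markers of macrophages and monocytes summed to 226 and 152 FPKM in Tfam cKO, against 118 and 116 FPKM in WT, with Cd163 and Fcgr1 at 0 in all 4 libraries and Adgre1, which Langerhans cells also express, at 97.8 and 76.8 FPKM in Tfam cKO, against 91.5 and 80.7 FPKM in WT. Most of the gap between the groups lay in C1qa, a complement chain, at 88.5 and 55.2 FPKM in Tfam cKO, against 22.1 and 29.3 FPKM in WT. The other C1q chains were higher too, C1qb at 22.1 and 9.46 FPKM in Tfam cKO, against 2.28 and 3.03 FPKM in WT. C1qc was at 17.1 and 9.31 FPKM in Tfam cKO, against 1.74 and 2.85 FPKM in WT. Ly6c2, Mrc1, Lyve1 and Ccr2 were below 1 FPKM in all 4 libraries. The part of macrophage RNA in the differences of Il1rn, Il1b and Tnf, which macrophages also express, was not tested.

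The genes around these cytokines were read in 6 lists. Their counts of genes with separate groups were made on FPKM as deposited and stand against 25.4% above and 9.75% below over all tested genes. At equal totals this background was 14.3% and 19.8%, and the lists were not counted on that scale. In the order below, the lists had median log2 differences of −0.06, 0.10, 0.01, 0.09, −0.24 and 0.12, against 0.07 over all tested genes. Of 14 further IL-1 family ligands and binding proteins, 8 were tested, 0 passed, and 1 was above and 2 below with separate groups. The 2 of highest level were Il33, an alarmin of barrier cells, at 26.6 and 27.7 FPKM in Tfam cKO, against 24.3 and 18.5 FPKM in WT, and the receptor partner Il1rap, at 19.1 and 18.4 FPKM in Tfam cKO, against 23.2 and 17.5 FPKM in WT. The IL-36 ligand genes listed as Il1f6 and Il1f8 were at or near 0 in all 4 libraries, chosen like the next genes after their values were seen. Il1f9, which encodes IL-36γ, was at 1.67 and 2.84 FPKM in Tfam cKO, against 1.95 and 1.84 FPKM in WT, and the IL-36 receptor gene Il1rl2 at 16.7 and 13.5 FPKM in Tfam cKO, against 17.7 and 15.0 FPKM in WT.

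All 16 genes of the pathway from the IL-1 and Toll-like receptors to NF-κB were tested and 0 passed, with 4 above, near the background of 25.4%, and 0 below. The 2 of highest level were the NF-κB subunit gene Rela, at 89.4 and 74.6 FPKM in Tfam cKO, against 46.5 and 54.8 FPKM in WT (log2 difference 0.68, SE 0.19, limma adjusted p = 0.554), and Tollip, an adaptor that restrains the pathway, at 83.1 and 83.1 FPKM in Tfam cKO, against 67.0 and 64.7 FPKM in WT. Irak2, a kinase of the receptor complex chosen after its values were seen, was at 27.8 and 28.1 FPKM in Tfam cKO, against 20.2 and 21.1 FPKM in WT. The list median was −0.01 at equal totals.

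All 13 genes for maturation and release of IL-1 family members and TNF were tested and 0 passed, with 4 above and 2 below. The calpain gene Capn1 and the inflammasome sensor gene Nlrp3 were of highest level. Capn1 was at 40.9 and 37.5 FPKM in Tfam cKO, against 42.7 and 30.2 FPKM in WT. Nlrp3 was at 25.6 and 24.3 FPKM in Tfam cKO, against 30.0 and 35.9 FPKM in WT (log2 difference −0.39, SE 0.17, limma adjusted p = 0.821). The caspase-1 gene Casp1 was at 5.07 and 6.01 FPKM in Tfam cKO, against 4.89 and 6.10 FPKM in WT, and the pore protein gene Gsdmd at 6.75 and 5.29 FPKM in Tfam cKO, against 3.27 and 4.11 FPKM in WT. Both were chosen after their values were seen.

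Among receptors of TNF, IL-6, IL-10, IL-12 and IL-23, 7 of 9 were tested and 0 passed, with 3 above and 0 below, against 25.4% and 9.75% over all tested genes. Those of highest level were the TNF receptor gene Tnfrsf1a, at 75.2 and 62.6 FPKM in Tfam cKO, against 68.6 and 60.1 FPKM in WT, and the IL-6 receptor gene Il6ra, at 47.7 and 41.8 FPKM in Tfam cKO, against 41.1 and 43.3 FPKM in WT. The next receptors were chosen after their values were seen. The other TNF receptor gene, Tnfrsf1b, was at 36.5 and 36.4 FPKM in Tfam cKO, against 22.9 and 22.6 FPKM in WT (log2 difference 0.66, SE 0.16, limma adjusted p = 0.466). Il10rb, a chain of the IL-10 receptor, was at 11.5 and 9.38 FPKM in Tfam cKO, against 6.70 and 4.22 FPKM in WT (log2 difference 0.84, SE 0.22, limma adjusted p = 0.523). The other chain, Il10ra, was at 45.4 and 27.3 FPKM in Tfam cKO, against 37.4 and 43.6 FPKM in WT. Its groups overlapped and its difference had the opposite sign (log2 difference −0.19, SE 0.25, limma adjusted p = 0.956). Il23r was at or below 0.120 FPKM in all 4 libraries.

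Of 13 partner chains and related cytokines, 5 were tested and 0 passed, with 1 above and 1 below. Those of highest level were Tgfb1, at 36.9 and 37.7 FPKM in Tfam cKO, against 30.6 and 39.98 FPKM in WT, and Ebi3, a chain of IL-27 and IL-35, at 4.44 and 5.39 FPKM in Tfam cKO, against 3.04 and 3.36 FPKM in WT. Il12a, which encodes the p35 chain that pairs with p40 in IL-12, was listed at 0 in all 4 libraries and was chosen after its values were seen. All 14 feedback regulators of cytokine mRNA and signalling were tested and 0 passed, with 4 above and 2 below. Zfp36, whose product degrades Tnf mRNA, was at 1661 and 1516 FPKM in Tfam cKO, against 1403 and 1742 FPKM in WT, and the phosphatase gene Dusp1 at 736 and 684 FPKM in Tfam cKO, against 635 and 657 FPKM in WT.

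**Figure D4:**
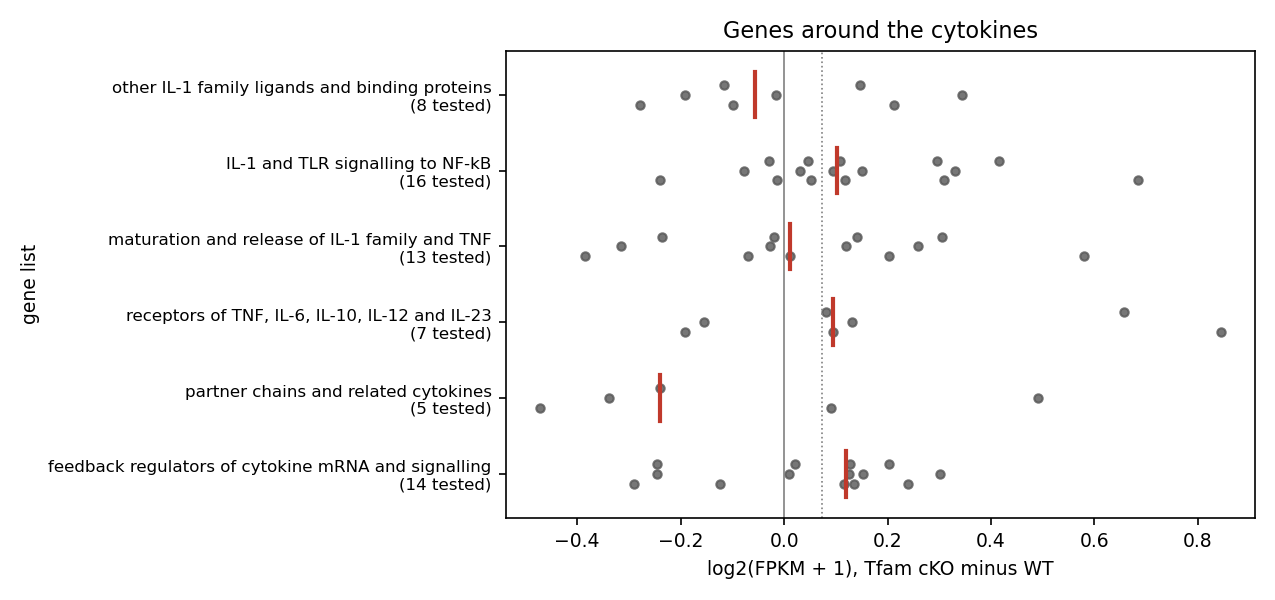
Difference in log2(FPKM + 1), Tfam cKO minus WT, of the tested genes of the 6 lists, each point 1 gene, with red bars for list medians, a solid line at 0 and a dotted line at the median of all tested genes, 0.07. Every list has genes on both sides of 0, and none of the points passed the test.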

How the data were processed

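Langerhans cells were sorted from epidermal suspensions, and their RNA, taken up in Trizol, went into NEBNext Ultra libraries, per the labels' protocols. The authors deposited 1 Cufflinks table per library, which per the file headers holds FPKM with a 95% interval. The submitters' processing notes name CASAVA, Cufflinks and mm10 and no versions. The sources used here do not give the aligner or annotation. Of 23519 symbols shared with RefSeq on GRCm38.p6, 11.3% overlapped their position there, and 0 of the 10 members did, so the build of the files is unresolved.

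Each table had 24994 rows for 24441 symbols, and loci of one symbol were summed. None of the 10 members had several loci. Symbols reaching a mean of 1 FPKM were tested as log2(FPKM + 1), which understates changes of low genes. Tfam cKO was compared with WT with limma 3.58.1 (R 4.3.3), fitting genotype alone, a mean trend in the variances and Benjamini-Hochberg adjustment at 0.05. The code of the fit was checked on simulated normal values with variances from the fit itself, which says nothing of other kinds of variation. Effective fragments are the squared ratio of a value to its standard error, taken from the interval. They leave out the spread between libraries and need not equal counted fragments. For 74 of 9593 genes they were whole in all 4 libraries within 0.02, which gave the relative depths.

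Members, lists and markers were chosen with earlier results of these data known. The text names every member, and of each list those past the threshold or, with none, the 2 genes of highest level, with exceptions stated. Symbols of IL-36 genes were matched through RefSeq synonyms, and 2 T cell markers were not used here. Promoters come from RefSeq. Il10 and Il23a are named without a sequence. Promoter motifs were chosen after the sequences had been seen. Alternatives were other filters, pseudocounts, scalings and variance settings, the replicate number as a term, and leaving out each library. Plots were made in matplotlib 3.10.9 (Python 3.11.15).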

Additional observations from a re-analysis of the deposited data

How the results depend on the processing

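Of 101 values of the 8 tested members under alternatives, 95 kept their direction and stayed on the same side of the threshold. Changes of filter, variance setting or block leave the log2 difference itself unchanged, so those values could not reverse. As 0 of the 8 passed in the main comparison, the same side means not past the threshold. The sign reversed for Il6 at equal totals (−0.00022). With each library left out in turn, Il18 ranged from −0.297 to 0.0146, positive without WT 1, and Il23a from −0.677 to 0.285, positive without WT 1 (0.0885) and without Tfam cKO 2. The cause was not tested. Il1b passed without Tfam cKO 1 and with the replicate number as a block (limma adjusted p = 1.76e-06). Members past the threshold numbered 1 with the block, and between 0 and 1 without each library in turn. Genes past the threshold, 2 in all, numbered 0 with no low-value filter, where 944 genes had an unadjusted p below 0.05, 1 with the filter at 5 FPKM, 1 with a pseudocount of 5, 5 with robust moderation and 184 with the replicate block. They ranged from 16 to 82 with a library left out, where the spread of a lone library is taken from the other group. The block leaves 1 residual degree of freedom against 2, so its p-values lean on variances pooled over genes. Deviations of libraries with the same number correlated with r = 0.255 over 10910 genes and only 2 pairs. The labels do not say that the numbers pair them, but in both groups Y-linked genes were listed above 0 only in library 2. Among tested genes at an unadjusted p below 0.05, 547 were higher and 130 lower as deposited, 334 and 245 after quantile normalization, and 281 and 293 at equal totals. Il1a, Il23a and Il6 have no value with the filter at 5 FPKM. Of 78 list medians under alternatives, 18 moved by more than the spread between libraries. Il10 and Il12b have no test in the comparison as reported.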
